A study of Saccharomyces cerevisiae with 72 samples.

Results

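The 8 core histone genes of budding yeast, HTA1, HTB1, HTA2, HTB2, HHT1, HHF1, HHT2 and HHF2, were followed through the acute induction of 2 cell cycle repressors. They were taken by name from the 6848 genes that both expression tables list, one for the YOX1 and yox1-9A strains and one for the YHP1 and yhp1-13A strains, and all 8 were measured in all 72 libraries and passed the filter on low values. Asynchronous cultures expressed Yox1, Yhp1 or a phosphomutant form of either from an estradiol-inducible promoter, and RNA was sequenced at 0, 20 and 60 min of 1 µM estradiol. There were 3 libraries for each of 8 strains at each time, which the design text calls biological replicates, and 24 groups in all. Values are TPM, a relative transcript abundance in which the length of each gene and the total of each library are already divided out.

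The inducible strains carried YOX1, yox1-9A, YHP1 or yhp1-13A with a 3V5 tag behind the Z4 promoter (URA3::Z4pr), and the 9A and 13A alleles lack Cdk1 phosphorylation sites. Each had a matched control strain, in which the tagged allele kept its native promoter and the Z4 promoter stood in front of HO (URA3::Z4pr-HO). All 8 strains were MATa, carried ura3∆0 at the native locus (URA3 itself came in with the Z4 promoter) as well as his3∆1 and lyp∆0, had STE2pr-SpHIS5 in place of CAN1 (can1∆) and held HAP1+::NatMX::pACT1-Z3EV-ENO2term, so that the artificial activator Z3EV was made from the ACT1 promoter in controls and inducible strains alike. A control therefore saw estradiol and Z3EV but made HO mRNA in place of more repressor. An induction value below is how much an inducible strain moved from its 0 min level minus how much its control did, on the log2(TPM + 1) scale. A gene was called when the Benjamini-Hochberg adjusted p of limma was under 0.05 and the log2 difference exceeded 0.58 in size, which is 1.49-fold.

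Nucleosomes wrap DNA around an octamer of H2A, H2B, H3 and H4, and yeast codes for each of these proteins with a pair of genes. The genes lie head to head, HTA (H2A) opposite HTB (H2B) and HHT (H3) opposite HHF (H4), and each couple shares the DNA between its start codons. Transcription is restricted to late G1 and S phase, when new DNA has to be packed. The activator Spt10, together with Spt21, acts through upstream elements of all 4 couples, SBF and MBF contribute at the G1/S transition, and the HIR complex with the chaperones Asf1 and Rtt106 represses every couple but HTA2 and HTB2. Yox1 and Yhp1 are homeodomain proteins that repress genes bound by Mcm1, among them the gene for the SBF subunit Swi4.

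The 4 shared regions were read from the R64 genome with RefSeq annotation, and the stretch around the match to the Spt10 element is shown for each, because it is the element that the 4 couples have in common. The element was searched as TTCC, then any 6 bases, then TTCNC, on both strands, and its matches are the capitals. Each stretch is 300 bases of the plus strand, so the gene named first is transcribed to the left and the second to the right.
HTB1 and HTA1 (chrIV:914983-915282, plus strand): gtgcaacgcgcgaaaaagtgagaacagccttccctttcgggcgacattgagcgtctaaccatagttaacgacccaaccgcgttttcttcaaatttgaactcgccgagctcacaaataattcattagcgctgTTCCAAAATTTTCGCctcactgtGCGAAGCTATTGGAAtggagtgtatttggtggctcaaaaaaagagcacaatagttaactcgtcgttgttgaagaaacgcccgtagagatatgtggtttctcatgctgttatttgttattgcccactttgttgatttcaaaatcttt
HTA2 and HTB2 (chrII:235965-236264, plus strand): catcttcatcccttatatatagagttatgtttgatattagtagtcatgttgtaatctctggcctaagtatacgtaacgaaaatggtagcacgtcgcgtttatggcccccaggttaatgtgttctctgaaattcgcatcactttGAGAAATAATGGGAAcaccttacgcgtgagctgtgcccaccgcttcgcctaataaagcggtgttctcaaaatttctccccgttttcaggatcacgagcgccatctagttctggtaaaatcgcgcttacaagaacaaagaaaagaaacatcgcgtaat
HHF1 and HHT1 (chrII:255801-256100, plus strand): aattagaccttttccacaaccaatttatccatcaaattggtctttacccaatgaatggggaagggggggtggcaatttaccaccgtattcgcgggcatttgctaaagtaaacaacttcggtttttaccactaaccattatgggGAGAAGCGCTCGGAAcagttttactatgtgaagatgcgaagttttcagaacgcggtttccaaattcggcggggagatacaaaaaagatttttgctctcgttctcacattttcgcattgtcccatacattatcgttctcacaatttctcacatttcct
HHT2 and HHF2 (chrXIV:576203-576502, plus strand): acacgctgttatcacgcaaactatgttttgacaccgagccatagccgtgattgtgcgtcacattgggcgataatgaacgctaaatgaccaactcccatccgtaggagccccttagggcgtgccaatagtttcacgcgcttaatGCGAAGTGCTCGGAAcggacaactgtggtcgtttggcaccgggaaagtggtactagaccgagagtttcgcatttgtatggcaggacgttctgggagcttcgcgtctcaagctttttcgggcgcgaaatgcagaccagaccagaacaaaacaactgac

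The coding sequences are HTB1 (chrIV:914317-914712, minus strand) and HTA1 (chrIV:915530-915928, plus), HTA2 (chrII:235394-235792, minus) and HTB2 (chrII:236492-236887, plus), HHF1 (chrII:255373-255684, minus) and HHT1 (chrII:256331-256741, plus), and HHT2 (chrXIV:575640-576050, minus) and HHF2 (chrXIV:576727-577038, plus). The whole region between start codons was 817 bases for HTB1 and HTA1 (chrIV:914713-915529), 699 for HTA2 and HTB2 (chrII:235793-236491), 646 for HHF1 and HHT1 (chrII:255685-256330) and 676 for HHT2 and HHF2 (chrXIV:576051-576726). HTB1 and HTA1 had 2 matches to the Spt10 element, one of them 402 bases before either start codon and the other 425 bases before HTB1 and 379 before HTA1, and each other couple had 1 match, 260 to 373 bases before a start codon. Of 6000 windows of 500 bases before a yeast start codon 2.9% held a match, and all 8 histone windows did. The element was first described in these promoters, so its presence is an annotation and not a result. The SBF box CGCGAAA occurred at 2 places between HTB1 and HTA1 and at 1 between HHT2 and HHF2, against 5.82% of all windows, and the MBF box ACGCGT at 1 place between HTA2 and HTB2, against 5.42%. Neither of the homeodomain cores TAATTA and TAATTG occurred in any of the 4 regions, and 24.6% and 34.7% of all windows held them. The Mcm1-type CArG-like pattern CC, any 6 bases, GG occurred in 3 of the regions but also in 49.2% of all windows. The regions are longer than the windows of 500 bases and each serves 2 genes, so their counts are not on the scale of these shares. Of the 8 histone windows 3 held the SBF box, 2 the MBF box, 5 the Mcm1-type pattern and 0 either homeodomain core. A match is a description of letters, and no binding was measured.

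**Figure D1:**
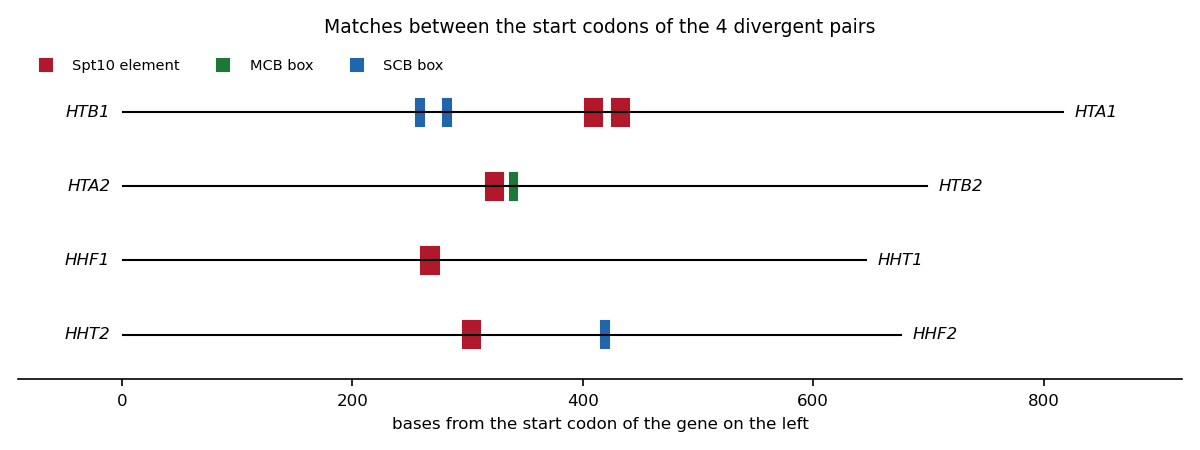
Map of the 4 regions between divergent histone genes, in bases from the start codon of the gene on the left, with matches to the Spt10 element, the MBF (MCB) box and the SBF (SCB) box as coloured blocks. Exact matches to the pattern searched for the Spt10 element lie in all 4 regions, with 2 between HTB1 and HTA1, the longest region at 817 bases. Elements that depart from this pattern were not searched.

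The strains behaved as labelled. YOX1 stood at 604 TPM or more at 20 and 60 min in the strains induced for it, against at most 157 in their controls, and YHP1 at 780 or more, against at most 75.6 (means of 3 libraries). At 0 min the inducible strains lay below their controls. YOX1 then had 30.6 and 21.3 TPM in the Yox1 and Yox1-9A strains, against 116 and 110. YHP1 had 22.1 and 21.2 in the Yhp1 and Yhp1-13A strains, against 62.0 and 44.3. In the Yox1 strain YHP1 went from 90.5 TPM at 0 min to 11.8 at 20 min. HO ran between 314.5 and 457 TPM in the controls after estradiol. The a-specific genes summed to 768 TPM or more in every library and the alpha-specific ones to at most 39.5. Depth is unknown, because TPM keeps no read totals, and no pair of libraries was identical. The cultures were not synchronised, so from these libraries alone fewer cells in S phase and less histone mRNA per cell cannot be told apart. The study followed the DNA content of such cultures separately, which was not analysed here. From representative plots the paper reports that the inductions changed the cell cycle distribution little or not at all.

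Together the 8 mRNAs made up 0.641% to 1.37% of the TPM of a library. In the 6 control libraries at 0 min the order was the same in both tables, from HHT2 with 2191 ± 198 TPM among the YOX1 strains and 2792 ± 165 among the YHP1 strains to HTA2 with 670.0 ± 46.5 and 911 ± 78.4 (SD, n = 6). Between them came HTB2 (2137 ± 105 and 2307 ± 77.7), HTB1 (1710.0 ± 181 and 1707 ± 112), HTA1 (1481 ± 60.5 and 1637 ± 67.6), HHF1 (1167 ± 148 and 1400.5 ± 106), HHF2 (1069 ± 66.0 and 1261 ± 70.0) and HHT1 (701 ± 48.6 and 958 ± 54.3). Neighbours in this order whose means lay closer than the sum of their SDs were HTB1 and HTA1, HHF1 and HHF2, and HHT1 and HTA2 in both tables, and HHT2 and HTB2 in the YOX1 table. The paralogs are near copies, with 87.9% of coding bases identical for HTB1 and HTB2 and 97.4% for HHF1 and HHF2, so reads of a paralog may be missing from the counts or placed on the wrong copy.

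The first question was whether Yox1 lowered histone mRNA. At 60 min 7 of 8 genes were lower, against 2.38% of all genes, with at least 1 gene of every couple among them, and at 20 min none was called (2.4% of all genes called lower). HHF1, for H4, had 586, 638 and 709 TPM at 60 min in the Yox1 strain, against 968, 1195 and 1312 in its control. HTA2, for H2A, had 315, 319.8 and 332 TPM in the Yox1 strain and 689, 695 and 675 in the control. HTB2, for H2B, had 1418, 1514 and 1275 TPM in the Yox1 strain and 2422, 2224 and 2337 in the control. In all 3 genes the highest library of the Yox1 strain lay below the lowest of the control. That held for all 8 histone genes at 60 min, whereas 6.33% of all 6255 genes tested were separated in this direction. HTA2 was already separated at 0 min, as described further on.

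HHT2, the more abundant H3 gene, had 1200.4, 1731 and 1542 TPM at 60 min of Yox1 and 1899, 2552 and 2695 in the control, and HTB1 had 867, 1164 and 1103 in the Yox1 strain and 1249, 1746 and 1828 in the control. For HTA1 the values were 1008, 918 and 852 TPM in the Yox1 strain and 1539, 1462 and 1493 in the control, for HHT1 337, 389.9 and 405 in the Yox1 strain and 526, 657 and 699 in the control, and for HHF2 675, 707 and 765 in the Yox1 strain and 1004, 1193 and 1174 in the control. Replicate 1 was the lowest library of both strains in HTB1, HHT2, HHT1, HHF1 and HHF2, but the highest of both in HTA1. Summed over the 8 genes, the Yox1 strain held 11719 ± 474 TPM at 0 min, 10532 ± 238 at 20 min and 6923 ± 490 at 60 min, and its control 11089 ± 603, 9816 ± 383 and 11411 ± 996 (SD, n = 3).

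**Figure D2:**
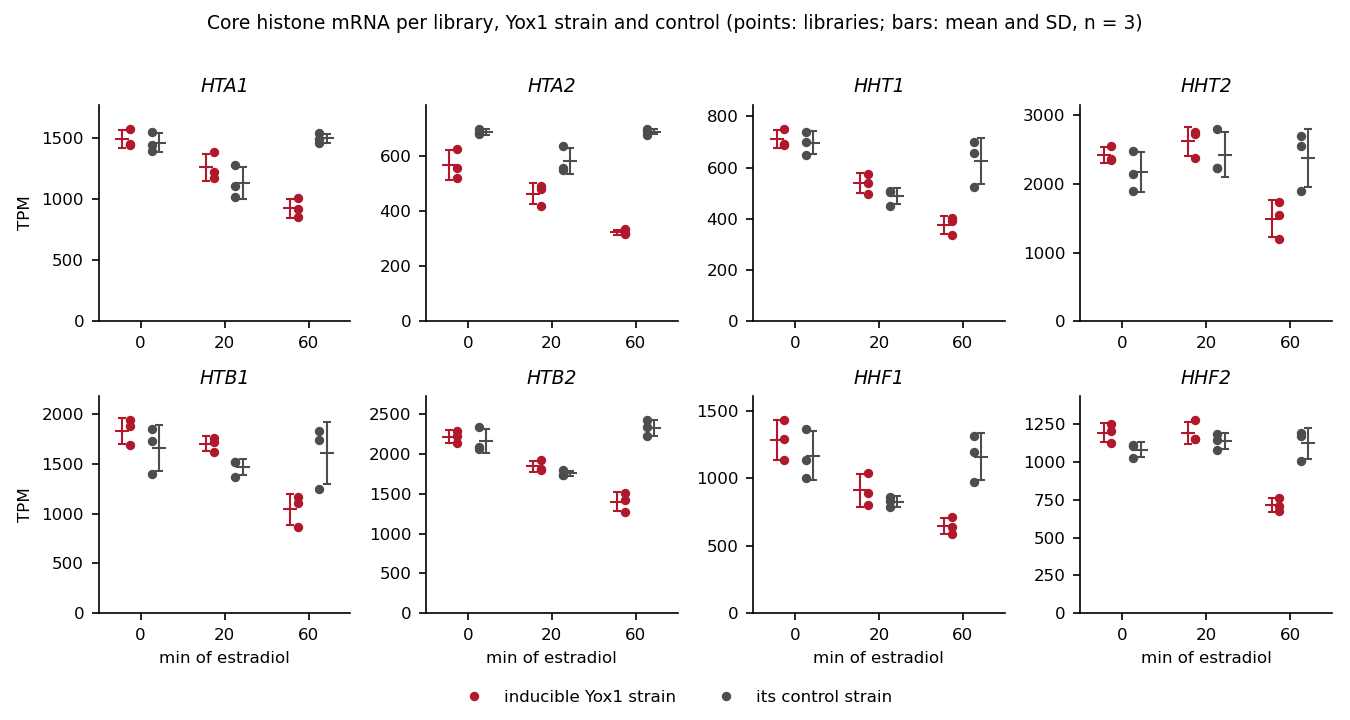
TPM of the 8 core histone genes at 0, 20 and 60 min of estradiol in the inducible Yox1 strain (red) and its control (grey), with a point per library and bars for the mean and SD of 3 libraries. At 60 min every red point lies below every grey point in all 8 panels, while at 20 min most panels overlap.

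With the control subtracted, 7 of 8 genes were lower at 60 min by the limma test. The H4 genes fell by 0.98 for HHF1 and 0.79 for HHF2 on the log2 scale, and the H3 genes by 0.84 for HHT2 and 0.76 for HHT1. Among the H2A and H2B genes HTA2 fell by 0.81 (SE 0.12, adjusted p = 2.75e-05) and HTB2 by 0.77 (SE 0.10, adjusted p = 1.16e-06). HTB1 had a similar difference with a larger error (log2 -0.77, SE 0.23, adjusted p = 0.0631), and the test was passed when replicate 1 of the control at 60 min was left out (log2 -0.94, adjusted p = 0.0128) or when libraries were set to a common median (adjusted p = 0.00109). HHT2 lost its call when only the groups of the contrast were fitted (adjusted p = 0.0883). The median over the 8 genes was -0.78, beside 0.05 over all genes.

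The times were also compared directly. From 20 to 60 min 6 of 8 genes were lower in the Yox1 strain relative to its control, against 0.32% of all genes. HHF1 had the largest difference (log2 -0.97, SE 0.17, adjusted p = 0.00191), followed by HHT1 (log2 -0.87), HTA1 (-0.85), HTB2 (-0.80), HTA2 (-0.76) and HHF2 (-0.71). HTB1 (log2 -0.83, adjusted p = 0.133) and HHT2 (log2 -0.79, adjusted p = 0.0672) had differences of that size without passing the test. Both were called without replicate 1 of the control at 60 min (adjusted p = 0.0327 for HTB1 and 0.0104 for HHT2), and HHT2 also without replicate 3 of the control at 20 min (0.0349) or replicate 2 of the Yox1 strain at 60 min (0.0295). With libraries set to a common median both were called (0.00225 for HTB1 and 0.000818 for HHT2). At 20 min itself the inductions ran between -0.07 and 0.13 on the log2 scale and no gene had an unadjusted p under 0.05, at a background of 2.4% called lower and 0.16% called higher. In the inducible strain alone, without subtraction, 8 of 8 genes were lower at 60 than at 0 min (3.65% of all genes), by 0.66 for HTB2 to 0.99 for HHF1 on the log2 scale.

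With Yox1-9A the values pointed the same way and lay nearer 0. HTB2 had 2068, 1984 and 1879 TPM at 60 min in the Yox1-9A strain and 2701, 2170.3 and 2326 in its control. HTA1 had 1248, 1252 and 1242 TPM in the Yox1-9A strain and 1708, 1459.9 and 1423 in the control. HHF2 had 839, 785 and 821 in the Yox1-9A strain and 1070.4, 991 and 1077 in the control. Here too the libraries of the induced strain lay below those of the control in all 8 genes, where 10.8% of all genes did. With the control subtracted the differences ran between -0.44 for HTB2 and -0.26 for HTB1 on the log2 scale, with a median of -0.37 beside 0.13 over all genes, and none of the 8 was called, at a background of 3.18% called lower. By adjusted p alone HTB2 (0.0026), HTA1 (0.0476) and HHF2 (0.0303) passed, as 4.08% of all genes did in this direction, and 6 of the 8 were lower at an unadjusted p under 0.05 by limma, beside 6.24% of all genes.

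From 20 to 60 min of Yox1-9A, HTA1 was lower by 0.59 on the log2 scale (SE 0.12, adjusted p = 0.00371), the only one of 8 genes called, against 0.815% of all genes. This value lies at the fold threshold, and the call was lost without replicate 1 of the control at 20 min (log2 -0.52), replicate 1 of the control at 60 min (-0.51) or replicate 2 of the Yox1-9A strain at 20 min (-0.53). HTB2 was second (log2 -0.45, adjusted p = 0.0077). At 20 min the values ran between -0.11 and 0.21, and 0 of 8 were called or had an unadjusted p under 0.05 by limma, beside 2.17% of all genes called lower. Summed over the 8 genes, the Yox1-9A strain held 11196 ± 1033 TPM at 0 min, 9639 ± 756 at 20 min and 8515 ± 98.9 at 60 min, and its control 11161 ± 667, 9491 ± 352 and 10987 ± 793 (SD, n = 3).

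With Yhp1 no histone gene was called at any time. At 60 min HHF1 had 1297, 1171 and 1106 TPM in the Yhp1 strain and 1269, 1140.0 and 1183 in its control, and HTB2 had 3133, 2907 and 2695 in the Yhp1 strain and 3252, 2857 and 2859 in the control. The libraries of the strains overlapped in 7 of 8 genes at this time, the exception being HTA2, and 5.09% of all genes were separated in the lower direction. The inductions at 60 min ran between -0.06 for HTB2 and 0.12 for HTA2 on the log2 scale, with none called and none at an unadjusted p under 0.05 by limma (0.0642% of all genes called lower). Their 95% intervals reached down to -0.37 for HTA1, and for each gene the value seen with Yox1 lay outside the interval. These intervals leave out the error of the Yox1 value, and the test of the difference, given below, called 5 of 8 genes.

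At 20 min of Yhp1 all 8 induction values were above 0, and none was called. HHT1 had 384, 488 and 605 TPM in the Yhp1 strain and 375, 416 and 389 in the control, and HHF1 had 603, 741 and 851 in the Yhp1 strain and 562, 614 and 522 in the control. In both genes replicate 1 of the Yhp1 strain fell inside the range of the control and the other two libraries lay above it. The differences were log2 0.46 for HHT1 (SE 0.15, adjusted p = 1) and 0.46 for HHF1 (SE 0.15, adjusted p = 1), where 0.0161% of all genes were called higher. At an unadjusted p under 0.05, 6 of 8 genes were higher, beside 0.819% of all genes. Without subtraction the same genes were lower at 20 than at 0 min in the Yhp1 strain (HHT1 log2 -0.87, HHF1 -0.84), since they fell further in the control. From 20 to 60 min the values ran between -0.50 and -0.17, and 0 of 8 genes and 0% of all genes were called. At an unadjusted p under 0.05, 6 of the 8 were lower, beside 1.54% of all genes.

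With Yhp1-13A no histone gene was called either. The inductions ran between 0.03 and 0.26 on the log2 scale at 20 min and between -0.30 and -0.06 at 60 min, and none of the 8 was called at either time, beside 0.337% and 0.482% of all genes called lower. The unadjusted p was under 0.05 in 0 genes at 20 min and 0 at 60 min by limma. HHT1 had the lowest value at 60 min, with 646, 609 and 567 TPM in the Yhp1-13A strain and 806, 765 and 749 in its control (log2 -0.30, SE 0.15). The libraries of the Yhp1-13A strain lay below the control in 4 of 8 genes at 60 min, HTA1, HTA2, HHT1 and HHF2, where 4.86% of all genes did. From 20 to 60 min of Yhp1-13A no gene of the 8 was called, as in 0% of all genes, and 6 were lower at an unadjusted p under 0.05, beside 0.995% of all genes.

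**Figure D3:**
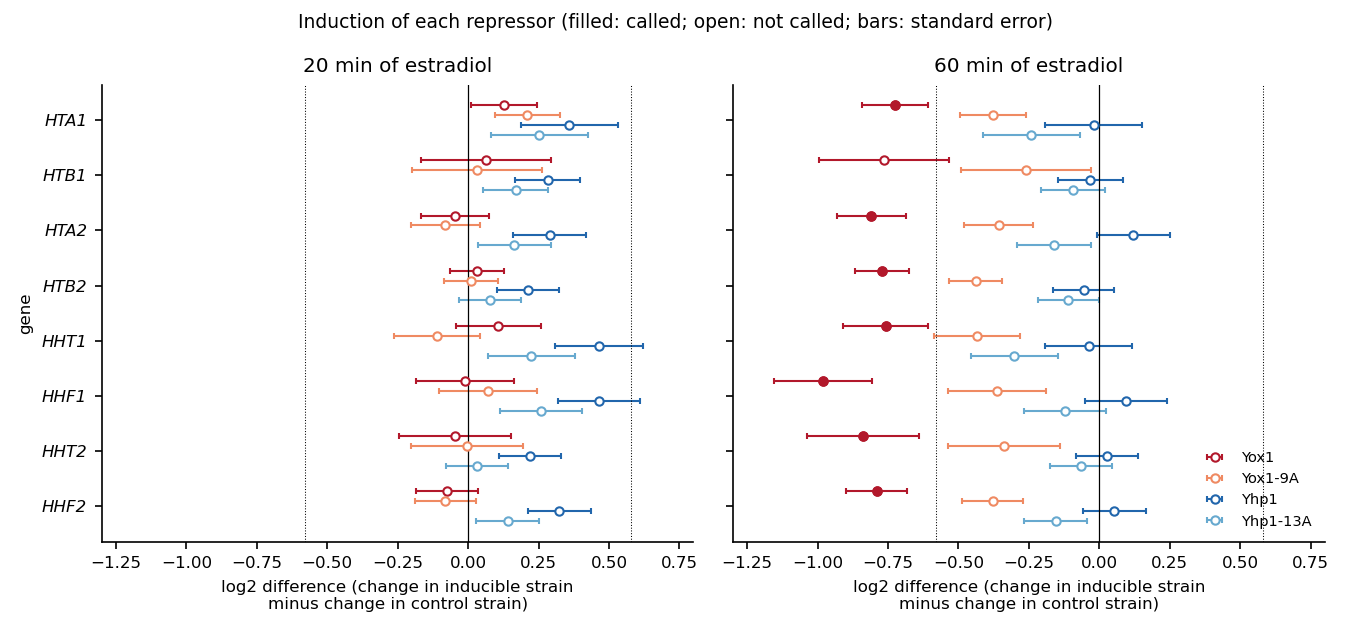
Induction of each repressor in the 8 core histone genes, as the log2 difference from 0 min in the inducible strain minus that in its control, at 20 min (left) and 60 min (right), with bars of 1 standard error, filled points for called genes and dotted lines at the fold threshold of 0.58. At 60 min the Yox1 points lie between -0.98 and -0.72, the Yox1-9A points between -0.44 and -0.26 and the Yhp1 points between -0.06 and 0.12.

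The next comparison set the repressors and their alleles against each other. In a joint fit of both tables, the change at 60 min was lower with Yox1 than with Yhp1 in 5 of 8 genes, against 1.17% of 6247 genes. HHF1 differed most (log2 -1.08, SE 0.23, adjusted p = 0.00277), then HTA2 (log2 -0.93, SE 0.18, adjusted p = 0.000544), HHT2 (log2 -0.87, SE 0.23, adjusted p = 0.0399), HHF2 (log2 -0.84, SE 0.16, adjusted p = 0.000284) and HTB2 (log2 -0.72, SE 0.15, adjusted p = 0.00122). HTA1, HTB1 and HHT1 had differences of -0.70, -0.73 and -0.72 with adjusted p of 0.103, 0.313 and 0.116. HHT2 is the weakest of the calls and was lost in 14 of 24 fits that left out a library (adjusted p = 0.0518 to 0.139) and when only the groups of the contrast were fitted (0.203), and HHT1 was called without replicate 1 of the control of Yox1 at 60 min (log2 -0.84, adjusted p = 0.0252). With a common median HHT1 (adjusted p = 0.0229) and HTB1 (0.00793) were called, and HTA1 was (0.00307) when only the groups of the contrast were fitted. At 20 min the differences ran between -0.47 and -0.18, with 0 of 8 called lower beside 1.44% of all genes and 2 lower at an unadjusted p under 0.05, beside 3.27% of all genes.

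Between Yox1-9A and Yhp1-13A none of the 8 was called at 20 or 60 min, where 0.784% and 1.46% of all genes were called lower. The differences at 60 min ran between -0.33 and -0.13, and 1 gene was lower at an unadjusted p under 0.05 by limma (3.54% of all genes), against 0 at 20 min (2.26%). Yox1-9A minus Yox1 at 60 min was above 0 in all 8 genes, at 0.32 to 0.62 on the log2 scale, and 0 of 8 were called, as in 0% of all genes called higher. HHF1 had a difference of 0.62 with a 95% interval of 0.11 to 1.12 and HTA2 one of 0.45 with 0.10 to 0.80, and 5 of 8 genes were higher at an unadjusted p under 0.05, beside 0.863% of all genes. The smaller fall under Yox1-9A is therefore not established by the test of the difference, and YOX1 mRNA was itself lower in the Yox1-9A strain, at 621 ± 30.7 TPM against 1046 ± 277 in the Yox1 strain at 60 min. The mRNA level does not give the amount of protein, which was not analysed here. From a Western blot of the induced strains the paper reports more of the phosphomutant proteins than of the wild type forms. The part of the mRNA or protein level in the histone values was not tested. At 20 min Yox1-9A minus Yox1 ran between -0.22 and 0.08, with 0 of 8 and 0% of all genes called and 0 at an unadjusted p under 0.05. Yhp1-13A minus Yhp1 ran between -0.24 and -0.11 at 20 min and between -0.28 and -0.05 at 60 min, with none of the 8 called, beside 0% and 0.0161% of all genes called lower, and 0 and 0 at an unadjusted p under 0.05.

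The control strains moved the histone genes on their own after estradiol, above all at 20 min. In the control of Yhp1, HHT1 had 1049, 985 and 957 TPM at 0 min, 375, 416 and 389 at 20 min and 806, 836 and 710.0 at 60 min. HHF1 had 1528, 1363 and 1316 TPM at 0 min, 562, 614 and 522 at 20 min and 1269, 1140.0 and 1183 at 60 min. HHT2 had 3056, 2614 and 2828 TPM at 0 min, 2132, 1855 and 2299.9 at 20 min and 2929.7, 2399.6 and 2722 at 60 min. The couple HHF1 and HHT1 was thus well below its 0 min range at 20 min and higher again at 60 min, though every 60 min library still lay below every 0 min library, while HHT2 kept at least 1855 TPM at 20 min. The sum over the 8 genes was 13223 ± 437, 7655 ± 272 and 12885 ± 737 TPM at 0, 20 and 60 min in the control of Yhp1, and 12723 ± 142, 7972 ± 266 and 12073 ± 558 in that of Yhp1-13A (SD, n = 3).

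By limma 6 of 8 genes were lower at 20 than at 0 min in each of these controls, against 11.6% of all genes in the control of Yhp1 and 10.4% in that of Yhp1-13A. The log2 differences in the control of Yhp1 were -1.34 for HHT1 (SE 0.11, adjusted p = 1.21e-10), -1.31 for HHF1, -0.99 for HTB1, -0.95 for HTA1, -0.84 for HTA2 and -0.71 for HTB2. The couple HHT2 and HHF2 changed by -0.44 and -0.53, short of the fold threshold. By the adjusted p alone all 8 genes were lower in both controls, beside 24.4% and 22.5% of all genes for Yhp1 and Yhp1-13A. From 20 to 60 min 5 of 8 genes were higher in each control, against 7.17% and 5.63% of all genes, with HTA1 at 1.10 and 0.98, HTB2 at 1.07 and 0.88, HHF1 at 1.08 and 0.94, HHT1 at 0.99 and 0.91 and HTA2 at 0.73 and 0.74 in the controls of Yhp1 and Yhp1-13A. HTB1 stood at 0.56 and 0.42, short of the fold threshold. Setting all libraries to a common median moved the median of all genes by 0.10 at 20 min in the control of Yhp1 and the histone median to -0.80, against -0.90 as deposited. HTB2 lost its call in the control of Yhp1-13A without replicate 2 at 0 min (log2 -0.58) or replicate 1 at 20 min (-0.54) and with libraries set to a common median (-0.54), and HTB1 in the control of Yhp1 gained one from 20 to 60 min without replicate 3 at 20 min (0.65) or replicate 2 at 60 min (0.61).

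Among the controls of Yox1 and Yox1-9A the values at 20 min lay nearer 0. HHT1 differed by log2 -0.51 and -0.52 between 20 and 0 min in the controls of Yox1 and Yox1-9A, and HHF1 by -0.49 and -0.54. In each control 0 of 8 genes passed the fold threshold, beside 7.64% and 8.9% of all genes called lower, and 5 passed on the adjusted p alone, HTA1, HTA2, HTB2, HHT1 and HHF1, as 17.1% and 19.6% of all genes did. HHT2 (0.16 and 0.06) and HHF2 (0.07 and 0.05) stood above 0. HHF1 was called without replicate 2 at 0 min of either control (log2 -0.59 and -0.65), and in the control of Yox1-9A HHF1 (-0.64) and HHT1 (-0.63) were called without replicate 3 at 20 min. At 60 against 0 min none of the 8 was called in any of the 4 controls (0.735%, 1.2%, 3.47% and 4.09% of all genes called lower), and 0, 2, 4 and 5 genes had an unadjusted p under 0.05 in the controls of Yox1, Yox1-9A, Yhp1 and Yhp1-13A, beside 27.8%, 29.9%, 42.8% and 41.8% of all genes. The lowest values then were those of HTB1 in the controls of Yhp1 and Yhp1-13A (log2 -0.42 and -0.43), and HTB2 stood at 0.36 and 0.27. Levels of the controls in the 2 tables were not compared by a test, because each table holds other strains, so table and strain cannot be told apart.

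**Figure D4:**
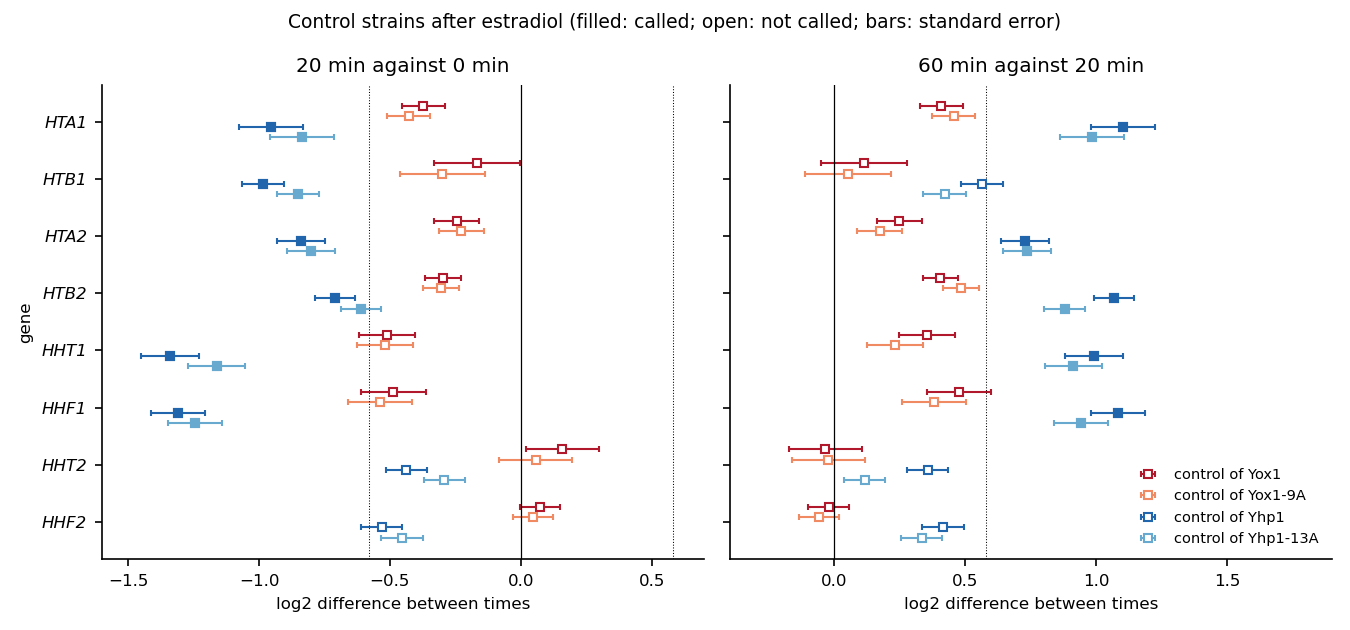
Change of the 8 core histone genes in the 4 control strains, as log2 differences of 20 against 0 min (left) and 60 against 20 min (right), with bars of 1 standard error, filled squares for called genes and dotted lines at the fold threshold of 0.58. HHT1 and HHF1 lie furthest left at 20 min, between -1.34 and -1.16 in the controls of the YHP1 table, and the couple HHT2 and HHF2 moved least.

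The members of a paralog pair did not keep a fixed ratio. HHT1 held 0.353 ± 0.021 of the HHT2 level at 0 min, 0.190 ± 0.030 at 20 min and 0.295 ± 0.047 at 60 min in the control of Yhp1 (ratio of TPM, SD, n = 3). HHF1 over HHF2 was 1.08 ± 0.052, 0.635 ± 0.083 and 1.00 ± 0.050 at these times. Both ratios were lowest at 20 min in all 8 strains, at 0.183 to 0.219 for HHT1 over HHT2 and 0.635 to 0.792 for HHF1 over HHF2. HTB1 over HTB2 took another course in the YHP1 table, where it was 0.750 ± 0.051, 0.649 ± 0.017 and 0.443 ± 0.010 at 0, 20 and 60 min in the Yhp1 strain and 0.751 ± 0.079, 0.620 ± 0.067 and 0.436 ± 0.031 in its control. The shift from HTB1 to HTB2 at 60 min was thus present with and without induced repressor.

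HTA2 differed between strains before any estradiol. At 0 min it had 599, 659 and 643 TPM in the Yhp1 strain and 942, 1022 and 899 in its control, and 628, 678 and 617 in the Yhp1-13A strain and 892, 933 and 782 in its control. In the YOX1 table it had 624, 518 and 555 TPM in the Yox1 strain and 697, 680.3 and 677 in its control, and 569, 520.0 and 508 in the Yox1-9A strain and 730.5, 598 and 637 in its control. In all 4 strain pairs every library of the inducible strain lay below every library of the control, where 2.88%, 6.06%, 2.23% and 1.41% of all genes did for Yox1, Yox1-9A, Yhp1 and Yhp1-13A. At 0 min HHT1 and HHF2 were also separated lower in the Yhp1 pair. HHF2 was separated higher in the Yox1 pair and HTB2 in the Yox1-9A pair, beside 8.3% and 5.58% of all genes. The same separation of HTA2 held at 20 min in each pair, beside 8.27%, 7.16%, 2.47% and 4.22% of all genes, and at 60 min, beside the shares given above for that time.

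The log2 difference of HTA2 at 0 min was -0.28, -0.30, -0.59 and -0.44 in the pairs of Yox1, Yox1-9A, Yhp1 and Yhp1-13A. It was called in the Yhp1 pair alone (SE 0.09, adjusted p = 0.000414), as the only one of 8 histone genes against 0.0642% of all genes called lower, and the call was lost without replicate 2 of the control (log2 -0.54) or replicate 1 of the Yhp1 strain (-0.55) and when only the 2 groups were fitted (adjusted p = 0.0886). The adjusted p was 0.0167 in the Yhp1-13A pair, 0.242 in the Yox1 pair and 0.15 in the Yox1-9A pair. Its divergent partner HTB2 had 0.04, 0.17, 0.02 and 0.04 in the same order of pairs, and its paralog HTA1 0.03, 0.09, -0.03 and 0.03. HTA1 over HTA2 was accordingly 2.59 ± 0.103 in the Yhp1 strain and 1.76 ± 0.084 in its control at 0 min. The inducible strains differed from the controls in the promoter at YOX1 or YHP1 and at HO, and the part of these, or of anything else in the strains' making, was not tested. In an induction value a constant offset of this kind cancels.

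**Figure D5:**
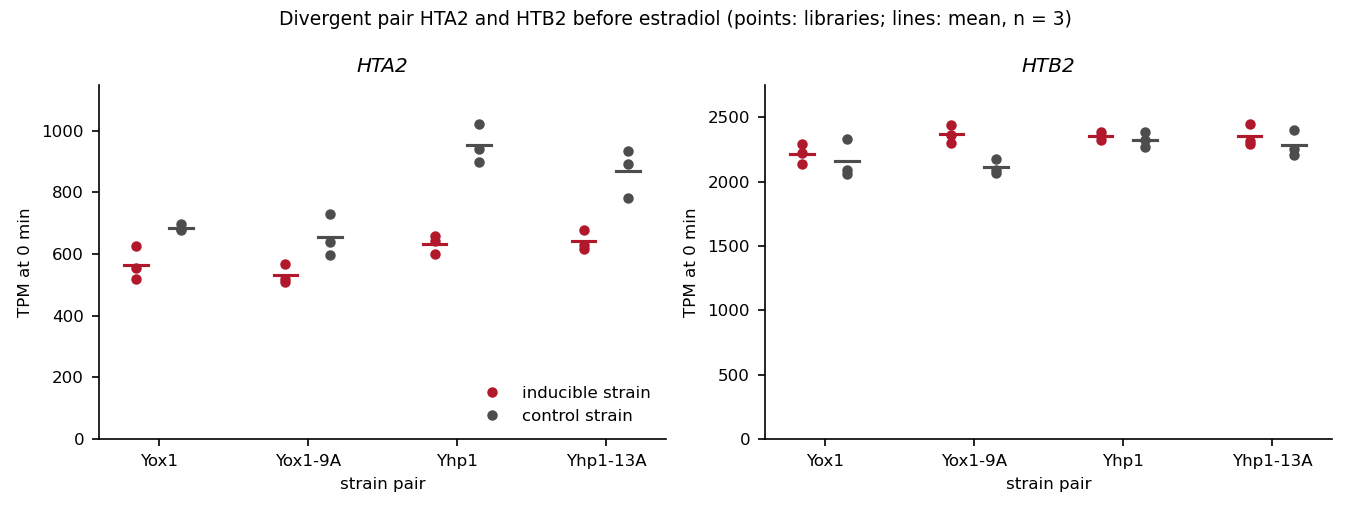
TPM of HTA2 (left) and of its divergent partner HTB2 (right) at 0 min in the 4 inducible strains (red) and their controls (grey), with a point per library and a line for the mean of 3. All red HTA2 points of a pair lie below its grey points, whereas HTB2 overlaps or lies higher in the inducible strain.

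The regulators and partners of histone genes were then counted, in lists compiled with earlier results of these data known. Of 12 regulators of histone transcription 2 were lower at 60 min of Yox1, SWI4 (log2 -1.88, adjusted p = 0.000687) and ASF1 (-1.17, adjusted p = 0.000105), and at 20 min only SWI4 was (-1.89), where 2.38% and 2.4% of all genes were called lower. SPT10, SPT21, the HIR genes, RTT106, YTA7, SWI6 and MBP1 were not called at either time. With Yox1-9A SWI4 (-1.45) and ASF1 (-1.03) were lower at 60 min, beside 3.18% of all genes, and neither was called with Yhp1 or Yhp1-13A. The same shares stand beside the next counts, with 2.17% of all genes called lower at 20 min of Yox1-9A and 0.337% at 20 min of Yhp1-13A. Of 12 histone chaperones 1 was lower with Yox1 at either time, MCM2, a helicase subunit that also binds H3 and H4 (-3.01 at 20 min and -2.41 at 60 min). It was also lower with Yox1-9A (-2.89 and -2.42) and at 20 min of Yhp1-13A (-0.68). RLF2, a subunit of the CAF-1 assembly factor, was lower at 60 min of Yox1-9A (-0.67). HST4, a deacetylase of newly deposited H3, was the one gene called of 5 that acetylate or deacetylate new histones, with Yox1 (-3.16 at 20 min, -2.92 at 60 min) and with Yox1-9A (-3.21 and -2.97). The variants HTZ1 and CSE4 and the linker histone HHO1 were not called in any of these inductions, with a median of -0.45 at 60 min of Yox1.

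Genes of S phase entry were lower in 4 of 23 cases at 20 min of Yox1 and in 10 at 60 min, beside the backgrounds of 2.4% and 2.38% given above. At 20 min these were the bud emergence gene GIC2 (-1.77), the cyclins CLB6 (-1.29) and CLN1 (-0.91) and RNR1 for ribonucleotide reductase (-0.73). At 60 min PCL1 (-2.02) and CLB6 (-1.75) had the lowest values, followed by GIC2 (-1.37) and CLN1 (-1.20), and MCD1 for cohesin (-1.15) and POL30 for the replication clamp (-1.01) were also called. With Yox1-9A 1 of 23 was lower at 20 min, GIC2 (-1.25), beside 2.17% of all genes, and 10 at 60 min, beside 3.18%. With Yhp1 and Yhp1-13A none was lower or higher at either time. There 0.0642% to 0.482% of all genes were called lower and 0.0161% higher. The median of the S phase list at 60 min was -0.69 with Yox1 and -0.62 with Yox1-9A, beside -0.78 and -0.37 for the histone genes. Whether the lower SWI4 or S phase levels had a part in the histone values was not tested.

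Over the 24 group means the histone genes moved with each other. The Pearson correlation of a single gene with the mean of the 8, each centred within its table, was 0.97 for HHF1 and HHT1, 0.93 for HTA1, 0.91 for HTB1, 0.87 for HHF2, 0.86 for HTA2 and HTB2 and 0.79 for HHT2. These values are a description, because each gene is part of the mean and the groups share strains and tables. The 5 other genes of 6247 with the most similar course were DMO2 (0.93), YDL158C (0.86), SPL2 (0.86), HAP1 (0.85) and OGG1 (0.85). HAP1 is the locus at which the Z3EV activator was integrated in all strains.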

How the data were processed

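RNA was sequenced from 72 libraries of BY4741-derived yeast grown in YM-1 with dextrose. The authors used STAR 2.5.3a and the R64 genome, counted fragments in exons with featureCounts 1.5.2 at a mapping quality above 20, and deposited TPM in 2 tables, one for the YOX1 strains (6857 genes) and one for the YHP1 strains (6865 genes). The labels speak of polyA depletion and the study's methods of poly-A purification, so it is unsure how histone mRNA was enriched, and the strand setting was not stated. TPM keeps no counts, so depth and counting error are unknown, and p-values measure the spread between libraries.

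The members and gene lists were chosen with earlier results of these data known. The named genes are the 8 members, YOX1, YHP1 and HO, at most 6 called genes of each other list by size of the log2 difference, and the 5 genes with the most similar course. Genes whose mean reached 1 TPM (6255, 6230 and, in a joint fit, 6247 genes) were fitted as log2(TPM + 1) in limma 3.58.1 (R 4.3.3) with 12 groups a table (24 in the joint fit), moderated by a trend and adjusted by Benjamini and Hochberg over all of them. On simulated data for Yox1 at 60 min, 100 of 100 genes with a log2 change of 2 and 78 of 100 with a change of 1 were recovered, and 6 unchanged genes were called. Simulated libraries varied independently of each other, and changes smaller than 1 were not simulated. Alternatives were no filter, a pseudocount of 0.1, a common median, no control subtraction, adjusted p alone, only the groups compared, a replicate block and leaving out each library.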

Additional observations from a re-analysis of the deposited data

Results flagged for a closer look

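The change at 60 min differed between Yox1 and Yhp1 in 5 genes by the test of the difference in the joint limma fit (Yox1 minus Yhp1, log2). The value was -1.08 for HHF1, -0.93 for HTA2, -0.87 for HHT2, -0.84 for HHF2 and -0.72 for HTB2. The call of HHT2 was lost when only the groups of the contrast were fitted (adjusted p = 0.203) and in 14 of 24 fits without a library. The tables of the repressors were normalised separately, so any difference between the tables that also acted on the change from 0 min relative to the control cannot be told apart from the repressor.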

How the results depend on the processing

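Without subtraction of the control the counts of the 8 genes called moved in several contrasts. For Yox1-9A 1 was lower at 20 min and 1 at 60 min, beside 9.77% and 4.51% of all genes. At 20 min 4 were lower for Yhp1 and 5 for Yhp1-13A, beside 10.5% in each strain. At 60 against 20 min 3 were lower for Yox1 and 0 for Yox1-9A, beside 3.04% and 3.49%. Between these times 3 were higher for Yhp1 and 1 for Yhp1-13A, beside 5.54% and 6.98%. The sign then turned at 20 min of Yhp1 for HHF1 (-0.84), HHT1 (-0.87), HTA1 (-0.59) and HTB1 (-0.70), at 20 min of Yhp1-13A for HHF1 (-0.98), HHT1 (-0.94), HTA1 (-0.58), HTA2 (-0.64) and HTB1 (-0.68), at 60 against 20 min of Yhp1 for HHF1 (0.71), HTA1 (0.72) and HTB2 (0.80), and of Yhp1-13A for HTB2 (0.69), because the controls moved the same way. With the adjusted p alone the counts were 3 for Yox1-9A at 60 min and 2 at 60 against 20 min, 5 and 5 in the control of Yox1 and 5 and 3 in that of Yox1-9A at 20 against 0 and 60 against 20 min, 3 and 8 in the control of Yhp1 at 60 against 0 and 60 against 20 min, 3 in that of Yhp1-13A at 60 against 0 min and 1 for Yhp1-13A before estradiol. By that measure 4.08% and 1.01% of all genes were lower for Yox1-9A at 60 min and at 60 against 20 min. At 20 against 0 min 17.1% and 19.6% were lower in the controls of Yox1 and Yox1-9A. At 60 against 0 min 13.4% and 16.6% were lower in those of Yhp1 and Yhp1-13A, and 0.241% for Yhp1-13A before estradiol. Shares of higher genes by the adjusted p alone were not computed. The counts at 60 against 20 min in the controls were all of higher genes. At an unadjusted limma p under 0.05, 19.5%, 20.7% and 26.8% of all genes were higher there for Yox1, Yox1-9A and Yhp1. The counts at 60 against 0 min did not separate the directions. HTB1 was then lower (log2 -0.42 and -0.43) and HTB2 higher (0.36 and 0.27) in the controls of Yhp1 and Yhp1-13A. A common median left 0 calls for Yox1-9A at 60 against 20 min, and fitting only the groups compared left 0 there and 0 for Yhp1 before estradiol. A common median added HTB1 at 60 min of Yox1, HTB1 and HHT2 at 60 against 20 min, and HTB1 and HHT1 in Yox1 minus Yhp1 at 60 min, and dropped HTB2 at 20 min in the control of Yhp1-13A. The cause was not tested. A common median moved the split of all called genes by over 10 percentage points in some contrasts, with 47.8% lower at 20 against 0 min in the control of Yhp1 beside 60.5% as deposited, 46.8% beside 32.7% at 60 against 20 min there, 44.3% beside 56.2% at 60 against 0 min in that of Yhp1-13A and 32.4% beside 19% at 60 against 0 min in that of Yox1. For the Yhp1 strain before estradiol it was 66.7% of 12 calls beside 44.4% of 9.

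Leaving out single libraries gave 7 to 8 calls for Yox1 at 60 min, 6 to 8 for Yox1 and 0 to 1 for Yox1-9A at 60 against 20 min, 4 to 6 for Yox1 minus Yhp1 at 60 min, 0 to 1 for Yhp1 before estradiol, 0 to 1 and 0 to 1 in the control of Yox1 and 0 to 2 in that of Yox1-9A at 20 against 0 min or 60 against 20 min, 5 to 6 in that of Yhp1 at 60 against 20 min and 5 to 6 in that of Yhp1-13A at 20 against 0 min. A fit with the replicate number as a block left 7 of 8 genes called at 60 min of Yox1 and changed no call of any member. Of 36 same-numbered pairs of inducible and control libraries 34 deviated together with a correlation over 0.1 (median 0.45, lowest -0.02) and 2 did not. Of 72 same-numbered pairs of 2 times in a strain 61 did (median 0.27). Libraries of the same number thus tended to deviate together. The main fit treated all libraries as independent, and what the numbers stand for was not tested. Unknown depth and 3 libraries a group limit what differences under the fold threshold can show.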
